A study of Mus musculus with 6 samples.

Results

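The genes described here encode receptors and regulators through which myeloid cells receive signals to survive and divide. They are 10 of the 24562 genes in the count table and were chosen by name: the receptors *Csf1r*, *Kit*, *Csf2ra*, *Csf2rb*, *Csf2rb2*, *Csf3r* and *Igf1r*, the ligand *Igf1*, and the transcription factors *Myc* and *Spi1*. Because a ligand and a pair of transcription factors are included, the set is wider than a list of receptors. RNA-seq was performed on unstimulated bone marrow-derived macrophages (BMDMs), which grow out of flushed marrow in L929-conditioned medium, a source of the growth factor CSF1. The comparison asks how loss of ATP citrate lyase (Acly), the enzyme that makes cytosolic acetyl-CoA from citrate, changes the transcriptome of these cells. Control BMDMs came from mice with loxP sites around exon 9 of *Acly* and without Cre (Acly fl/fl), and AclyM-KO BMDMs from mice that in addition carried Cre under the *Lyz2* promoter (LysMcre), so that both groups shared the floxed alleles. The mice were on a C57BL/6J background, and the labels give no age. The series text describes them as female, whereas the reporting summary of the study names marrow of young adult male and female mice for its in vitro work.

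There were 3 libraries per group, and the legends of the study describe its BMDM replicates as technical replicates of pooled mice, so that p-values measure the spread between these libraries and need not cover the variation between mice. LysMcre acts in the whole myeloid lineage, including monocytes and neutrophils. Total counts over all transcripts, in which shared exons count several times, ranged from 19327459 to 23582992 in the control libraries. In the AclyM-KO libraries they ranged from 19797218 to 44507233. Over 1 transcript per gene, the ranges were 11120034 to 13598887 and 11386212 to 25814853. By the totals over all transcripts, AclyM-KO replicate 2 held 2.18 times the mean of the other 5. This library also stood apart by base composition. Relative to the mean of the other AclyM-KO libraries, its log2 level was 0.18 higher in the genes with the lowest GC content (median 41.4%) and lower in those with the highest (a difference of -0.27, median GC 58.6%), and values without it are therefore given for the 10 genes. *Acly* fell from 229.7 ± 8.18 to 96.8 ± 3.06 CPM (SD, n = 3 each), where CPM, the unit used here for a level, is the read count scaled by the normalised total of its library. In both groups the macrophage genes *Adgre1*, *Cd68*, *Itgam* and *Mrc1* were abundant in every library, and their log2 fold changes of 0.075, 0.0088, 0.0011 and 0.14 did not pass the test. Of the 12 macrophage markers, 0 rose and 3 fell, among them *Mertk* and *Lyz2*, the gene that carries the Cre insertion (25% past the threshold, against 12.3% of all genes, while 1 rose and 4 fell without AclyM-KO replicate 2). Their summed level was 21760 to 22373 CPM in control and 14453 to 15936 CPM in AclyM-KO libraries, of which *Lyz2* alone made up 13305 CPM in control and 6437 CPM in AclyM-KO macrophages (means of 3).

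The colony-stimulating factors are named after the colonies they raise from marrow progenitors. CSF1 signals through the tyrosine kinase CSF1R and is the main survival and growth factor of macrophages, stem cell factor signals through the related kinase KIT on progenitors and mast cells, and the receptors for CSF2, CSF3 and IL-3 have no kinase of their own and work through JAK2 and STAT5. IGF1 is made by macrophages themselves and acts on the kinase IGF1R, MYC is a transcription factor that growth factors induce, and PU.1, the product of *Spi1*, is required for the myeloid lineage and activates the genes of several of these receptors.

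All 10 genes passed the filter on low counts. In edgeR's quasi-likelihood test, 8 of the 10 passed an adjusted p of 0.05, against 12.3% of the 11470 genes tested. The 10 genes and the lists below were chosen with earlier results of these data known. Their shares past the threshold are therefore descriptions and do not test the sets against all genes. *Kit*, *Csf2ra* and *Igf1* were higher in AclyM-KO macrophages (3 of 10, against 6.7% of all genes) and *Csf1r*, *Csf2rb*, *Csf2rb2*, *Csf3r* and *Igf1r* were lower (5 of 10, against 5.65%). In each of these 8 genes the control and AclyM-KO libraries did not overlap, which was the case in 32.8% of all genes. *Myc* and *Spi1* did not pass. The median log2 fold change of the 10 genes was -0.27 and that of all tested genes 0.00026. The sizes were modest, and *Kit* alone changed by more than 1 on the log2 scale. An exact permutation test of 3 libraries against 3 cannot give a two-sided p below 0.1, so single values were judged by the fit over all genes. In bulk RNA, fewer cells that express a gene and less RNA of it per cell cannot be told apart.

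**Figure D1:**
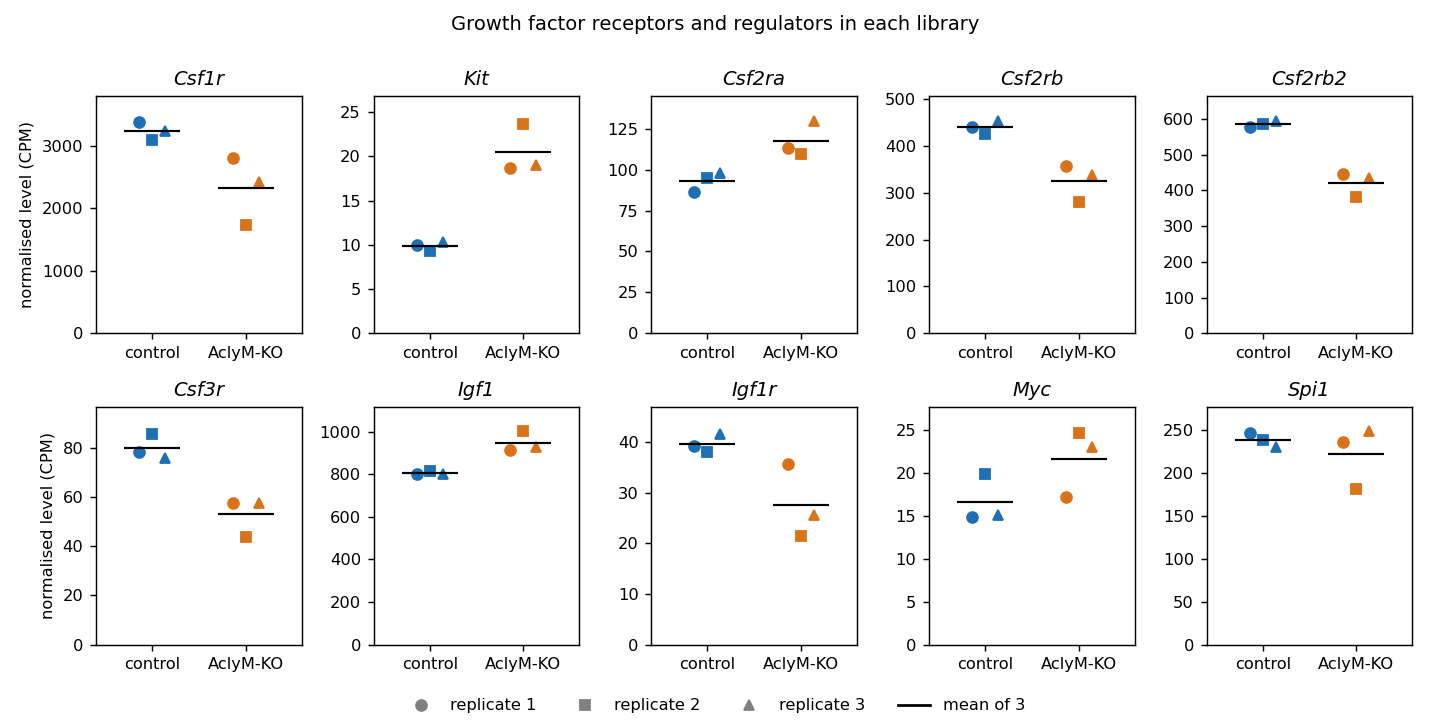
Level of each gene in CPM (vertical axes, linear, starting at 0) in the 3 control (blue) and 3 AclyM-KO libraries (orange), with the replicates as circle, square and triangle and the mean as a line. *Kit* lies between 9.27 and 10.3 CPM in control and between 18.6 and 23.7 CPM in AclyM-KO libraries, *Csf1r* falls furthest in AclyM-KO replicate 2 (1733 CPM), and the groups overlap in *Myc* and *Spi1*.

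The receptor for CSF1 was expressed at a high level and fell. Positions given for genes are RefSeq gene spans, and exon numbers are those of the transcript matched to the counts. *Csf1r* (chr18:61105572-61131139 of GRCm38, plus strand, 22 exons) had 3380.4, 3091 and 3239.7 CPM in the control libraries and 2813, 1733 and 2428 CPM in AclyM-KO replicates 1, 2 and 3. Every AclyM-KO library was below every control library, and the AclyM-KO libraries were spread more widely, with replicate 2 far below the others. The mean was 3237 ± 145 CPM in control and 2325 ± 547 CPM in AclyM-KO macrophages (SD, n = 3 per group), corresponding to a log2 fold change of -0.48 (SE, standard error, 0.135, 95% interval -0.77 to -0.18, adjusted p = 0.0391 in edgeR). Without AclyM-KO replicate 2 the change was smaller and better determined, at -0.30 (adjusted p = 8.59e-04 in edgeR). The adjusted p rose above 0.05 when any single control library was left out (0.137, 0.0906 and 0.127 without replicates 1, 2 and 3) and without AclyM-KO replicate 3 (0.0769). With the transcripts of each gene summed it was 0.0516. In mean CPM over the 6 libraries, *Csf1r* stood at percentile 99.8 of all tested genes.

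*Kit* (chr5:75574987-75656722, plus strand, 21 exons) encodes the receptor for stem cell factor and was a weakly expressed gene in these macrophages, with 110, 124 and 114 counts in the control and 214, 627 and 218 in the AclyM-KO libraries. Scaled for depth, these came to between 9.27 and 10.3 CPM in control and between 18.6 and 23.7 CPM in AclyM-KO libraries. The groups were far apart relative to their spread, and AclyM-KO replicate 2 was the highest. The mean rose from 9.85 ± 0.526 to 20.4 ± 2.82 CPM (SD, n = 3 per group), a 2.10-fold change (log2 fold change 1.07, SE 0.132, 95% interval 0.78 to 1.36, adjusted p = 5.05e-04 in edgeR). It was 0.94 without AclyM-KO replicate 2 (adjusted p = 2.03e-05 in edgeR) and passed with each of the 6 libraries left out. Markers of mast cells, basophils and progenitors, in which *Kit* is also expressed, were close to 0. Of 11 such genes, 6 (*Fcer1a*, *Ms4a2*, *Tpsb2*, *Cma1*, *Gata1* and *Prss34*) had 0 counts in every library, 0 were tested, and their summed level was 0.818 to 1.08 CPM in control and 0.872 to 1.17 CPM in AclyM-KO libraries. Within that list *Gata2* had 0, 1 and 1 counts in the control and 2, 8 and 2 in the AclyM-KO libraries. *Kitl*, the ligand of KIT, had 36.4, 35.6 and 35.3 CPM in control and 38.7, 57.7 and 41.3 CPM in AclyM-KO libraries, with a log2 fold change of 0.38 that did not pass (SE 0.134, adjusted p = 0.0918 in edgeR).

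The receptors for CSF2 and IL-3 each consist of a ligand-binding α chain and a β chain that carries the signal. In the mouse, *Csf2rb* encodes the β chain common to CSF2, IL-3 and IL-5, and *Csf2rb2*, its neighbour on chromosome 15, encodes a second β chain used by IL-3. These genes are near copies, which matters for how reads are assigned. In RefSeq-matched transcripts of GRCm38 their coding sequences hold 2688 and 2634 bases without the stop codon, and 2503 of 2628 aligned bases (95.24%) were identical. The most divergent 60 bases lie in exon 4 and differ at 13 positions, which are shown in capitals because reads can be assigned to one gene there, at chr15:78338893-78338952 (plus strand) for *Csf2rb* and chr15:78294379-78294438 (minus strand) for *Csf2rb2*:
Csf2rb: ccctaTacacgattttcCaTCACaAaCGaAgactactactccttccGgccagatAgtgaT
Csf2rb2: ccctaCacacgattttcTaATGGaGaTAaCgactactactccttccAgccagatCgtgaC
By contrast, a run of 242 bases in exon 14 was the same in both genes (chr15:78348577-78348818 plus strand in *Csf2rb* and chr15:78284630-78284871 minus strand in *Csf2rb2*), and reads that fall wholly within it align equally well to both, so that the filter on mapping quality acts on them:
Csf2rb and Csf2rb2: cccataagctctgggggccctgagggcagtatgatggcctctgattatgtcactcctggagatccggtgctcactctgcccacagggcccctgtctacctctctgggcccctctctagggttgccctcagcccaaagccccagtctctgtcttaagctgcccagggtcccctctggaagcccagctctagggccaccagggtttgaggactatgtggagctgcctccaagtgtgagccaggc
Of all stretches of 50 bases in the coding sequence of *Csf2rb*, 26% were found unchanged in *Csf2rb2*, and of all stretches of 100 bases, 11%.

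The α chain rose while both β chains fell. *Csf2ra* (chr19:61217191-61228461, minus strand, 12 exons) had 86.5, 94.9 and 98.2 CPM in control and 113, 109.8 and 129.8 CPM in AclyM-KO libraries. All AclyM-KO libraries lay above all control libraries, although the gap between the groups was narrow. The log2 fold change was 0.33 (SE 0.084, 95% interval 0.15 to 0.52, adjusted p = 0.0241 in edgeR), and it was 0.38 without AclyM-KO replicate 2 (adjusted p = 6.74e-04 in edgeR). The adjusted p was 0.132, 0.0826 and 0.0657 without control replicates 1, 2 and 3 and 0.0788 without AclyM-KO replicate 3, so the call depended on all of these libraries.

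*Csf2rb* (chr15:78325800-78351001, plus strand, 14 exons) had 441, 425 and 453 CPM in control and 358, 280.5 and 338 CPM in AclyM-KO libraries, a log2 fold change of -0.43 (SE 0.086, 95% interval -0.62 to -0.25, adjusted p = 0.00762 in edgeR). *Csf2rb2* (chr15:78282507-78305721, minus strand, 14 exons) had 576, 587 and 594 CPM in control and 446, 381 and 435 CPM in AclyM-KO libraries, a log2 fold change of -0.48 (SE 0.071, 95% interval -0.63 to -0.32, adjusted p = 0.00178 in edgeR). In both genes every AclyM-KO library was lower than every control library and AclyM-KO replicate 2 was the lowest. Because the assignment of reads between the copies is uncertain, their counts were also summed and fitted as 1 gene, which gave -0.46 (SE 0.077, adjusted p = 0.00321 in edgeR). This sum does not recover reads that the filter on mapping quality may have removed. The ratio of *Csf2rb2* to *Csf2rb* counts was 1.31, 1.38 and 1.31 in control and 1.25, 1.36 and 1.28 in AclyM-KO libraries, and these ranges overlapped. The decrease of *Csf2rb2* passed with each library left out, and that of *Csf2rb* was lost in 1 of these 6 fits, without control replicate 3 (adjusted p = 0.0526). Without AclyM-KO replicate 2 the log2 fold changes were -0.33 and -0.41 for *Csf2rb* and *Csf2rb2*.

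Per transcript length, as RPKM, which divides the CPM by the length of the transcript in kilobases, the level of *Csf2ra* was 21.8, 24.1 and 24.1% of the summed β chains in control and 36.1, 42.6 and 43.1% in AclyM-KO libraries. This share was higher in every AclyM-KO library than in any control library. Reads of the β chains that the filter on mapping quality may have removed would make the share too high in both groups. Among the IL-3 receptor parts, the α chain *Il3ra* had 45.8 to 48.8 CPM in control and 37.0 to 54.5 CPM in AclyM-KO libraries (log2 fold change -0.017, adjusted p = 0.947 in edgeR), while *Il5ra* and the ligands *Csf2*, *Il3* and *Il5* had 0 counts in every library, which leaves room for up to 3 counts in each. Dendritic cells also carry the CSF2 receptor. Of 10 dendritic cell markers, 2 were tested, 0 rose and 1 (*Clec10a*, -0.75, adjusted p = 0.00284 in edgeR) fell (50%, against 12.3% of all genes), and 0 of the 10 were at 0 in all libraries. Their summed level was 31.0 to 40.9 CPM in control and 21.1 to 24.7 CPM in AclyM-KO libraries. *Clec10a* alone made up 33.4 CPM of it in control and 19.9 CPM in AclyM-KO macrophages (means of 3). The other tested marker, *Batf3*, had means of 1.66 and 0.87 CPM. The part of dendritic cells in the changes of the CSF2 receptor was not tested.

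*Csf3r* (chr4:126023441-126044975, plus strand, 17 exons), which encodes the receptor for the neutrophil growth factor CSF3, was also lower in AclyM-KO macrophages. It had 78.5, 85.8 and 75.9 CPM in control and 57.7, 43.6 and 57.4 CPM in AclyM-KO libraries. The groups were clearly separated, with AclyM-KO replicate 2 again the lowest. The mean was 80.05 ± 5.14 CPM in control and 52.9 ± 8.04 CPM in AclyM-KO macrophages (SD, n = 3 per group), corresponding to a log2 fold change of -0.61 (SE 0.108, 95% interval -0.84 to -0.37, adjusted p = 0.00439 in edgeR), or -0.48 without AclyM-KO replicate 2 (adjusted p = 7.95e-05 in edgeR). It passed with each library left out. Neutrophil markers were examined beside it. Of 12 such genes 4 were tested, and 0 passed the threshold in edgeR (0 also in DESeq2 and 0 at an unadjusted p under 0.05), with summed levels of 29.1 to 32.8 CPM in control and 29.9 to 31.8 CPM in AclyM-KO libraries, while *Ly6g* had at most 2 counts and *Elane* at most 3 in any library. *Csf3*, the ligand, had 0 counts in every library.

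Promoter sequences are shown for *Csf2ra* and *Csf3r*, because these receptor genes changed in opposite directions and both windows hold GAGGAA, the core letters of the PU.1 motif. The windows are those of RefSeq on GRCm38.p6, from 250 bases before to 50 bases after an annotated start, in the direction of the gene, with GAGGAA in capitals. That of *Csf2ra* is chr19:61228369-61228668 (minus strand) and that of *Csf3r* is chr4:126024409-126024708 (plus strand). The start used for *Csf2ra* is that of the transcript matched to its counts, and the start used for *Csf3r* lies 109 bases downstream of it:
Csf2ra: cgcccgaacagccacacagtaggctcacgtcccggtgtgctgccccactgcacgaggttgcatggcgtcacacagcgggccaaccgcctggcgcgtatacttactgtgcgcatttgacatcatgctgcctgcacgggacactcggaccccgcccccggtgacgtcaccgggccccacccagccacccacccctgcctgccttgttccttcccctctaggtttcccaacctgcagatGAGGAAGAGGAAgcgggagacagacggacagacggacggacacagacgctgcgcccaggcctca
Csf3r: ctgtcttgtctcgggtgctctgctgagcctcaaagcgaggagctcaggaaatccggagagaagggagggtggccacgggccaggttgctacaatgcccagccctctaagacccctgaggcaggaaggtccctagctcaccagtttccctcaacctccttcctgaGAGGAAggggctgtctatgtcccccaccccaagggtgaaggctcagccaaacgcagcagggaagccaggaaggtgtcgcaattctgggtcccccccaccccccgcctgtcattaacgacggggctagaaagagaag
In *Csf2ra* the letters occur in 2 adjacent copies, 14 and 8 bases before the start. In *Csf3r* they occur once, 86 bases before the start used. This match lies downstream of the start of the transcript matched to the *Csf3r* counts, not before it. Of the 10 genes, 6 had a window, and 5 of these held GAGGAA on either strand (*Csf2ra*, *Csf2rb2*, *Csf3r*, *Kit* and *Igf1*, while *Igf1r* did not). Of all windows, 9289 of 32851 (28.3%) held it. A gene can have several windows, as *Kit* did, so the share of genes cannot be set against this share of windows. The start used for *Igf1* lies 1853 bases downstream of that of the transcript matched to its counts. For *Igf1r* it lies at -570 bases, that is upstream. The genes with GAGGAA in a window included ones that rose and ones that fell. A match to these letters is a description of the sequence and does not show binding.

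Of the insulin-like growth factor pair, the ligand rose and the receptor fell. *Igf1* (chr10:87858265-87937047, plus strand) had 799.6, 814 and 804 CPM in control and 915, 1006 and 926 CPM in AclyM-KO libraries. The control libraries were almost equal and all AclyM-KO libraries were above them, most of all replicate 2. The mean rose from 806 ± 7.27 to 949 ± 49.4 CPM (SD, n = 3 per group), corresponding to a log2 fold change of 0.24 (SE 0.063, 95% interval 0.10 to 0.37, adjusted p = 0.0325 in edgeR), or 0.19 without AclyM-KO replicate 2 (adjusted p = 0.00444 in edgeR). All 5 transcripts of *Igf1* gave changes between 0.24 and 0.25. The total of each was 94.6% or more of the highest, since shared exons count in each. They are therefore not separate measurements. *Igf1r* (chr7:67952257-68233668, plus strand, 21 exons) had 39.2, 38.1 and 41.7 CPM in control and 35.7, 21.5 and 25.65 CPM in AclyM-KO libraries. AclyM-KO replicate 1 lay close to the control libraries and replicate 2 was the lowest. The log2 fold change was -0.54 (SE 0.153, 95% interval -0.88 to -0.21, adjusted p = 0.0395 in edgeR), or -0.37 without AclyM-KO replicate 2 (adjusted p = 0.0228 in edgeR). The calls of *Igf1* and *Igf1r* were lost without any single control library (adjusted p 0.118 to 0.143 for *Igf1* and 0.0983 to 0.146 for *Igf1r*) and without AclyM-KO replicate 3 (0.0546 and 0.109), and that of *Igf1r* also with summed transcripts (0.0558).

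*Myc* (chr15:61985341-61990361, plus strand, 3 exons) had 14.8, 19.9 and 15.1 CPM in control and 17.1, 24.7 and 22.9 CPM in AclyM-KO libraries. Control replicate 2 was above AclyM-KO replicate 1, so that the groups overlapped. The log2 fold change of 0.39 (SE 0.156, 95% interval 0.05 to 0.73) had an adjusted p of 0.134 in edgeR, and 1 of 17 alternative settings brought it under 0.05, namely leaving out AclyM-KO replicate 1 (0.51, adjusted p = 0.0341). Without AclyM-KO replicate 2 it was 0.26. *Spi1* (chr2:91082374-91115759, plus strand, 5 exons) had 247, 238 and 231 CPM in control and 236, 182 and 249 CPM in AclyM-KO libraries. AclyM-KO replicate 2 was the lowest and replicate 3 the highest of all 6. The log2 fold change of -0.11 (SE 0.102, 95% interval -0.33 to 0.12, adjusted p = 0.545 in edgeR) turned to 0.024 without AclyM-KO replicate 2. The intervals leave room for a change of either sign in *Spi1*.

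**Figure D2:**
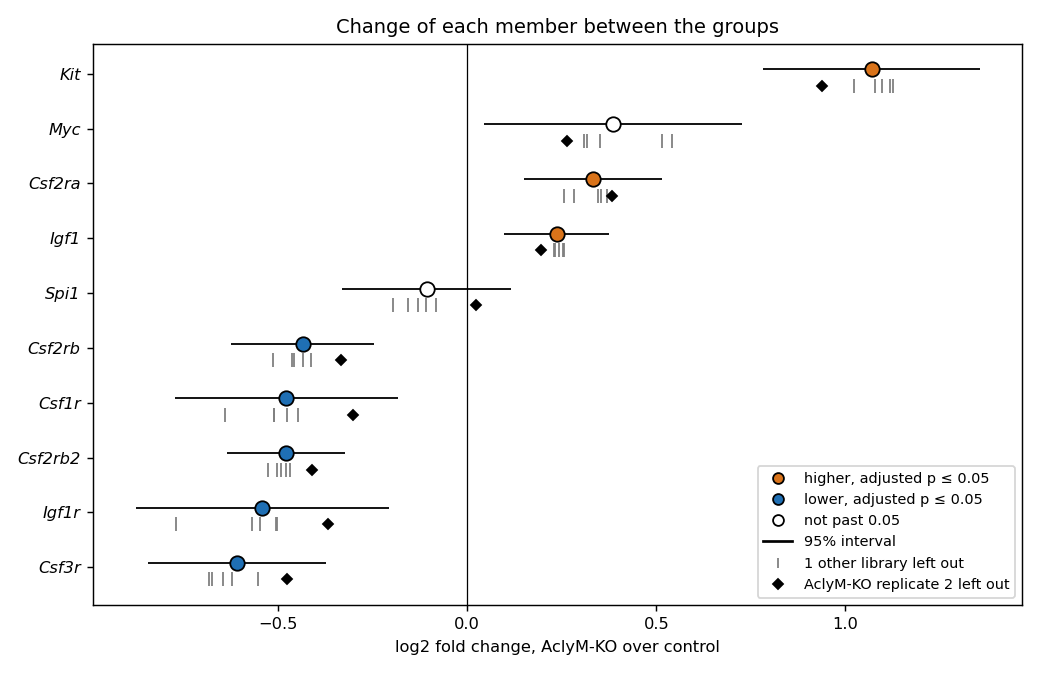
Log2 fold change of AclyM-KO over control macrophages (horizontal axis) for each gene, with its 95% interval (line), filled where the adjusted p was 0.05 or less, and below it the values with 1 library left out (ticks, and a diamond for AclyM-KO replicate 2). *Kit* is at 1.07 and *Csf3r* at -0.61, and without AclyM-KO replicate 2 all changes except that of *Csf2ra* lie nearer to 0 and that of *Spi1* crosses it.

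Seen across libraries, AclyM-KO replicate 2 had the lowest level of all 6 in *Csf1r*, *Csf2rb*, *Csf2rb2*, *Csf3r*, *Igf1r* and *Spi1* and the highest in *Kit*, *Igf1* and *Myc*. GC content in these transcripts ran from 41.1% in *Igf1* and 48.2% in *Kit* to 58.9% in *Spi1* and 61.5% in *Csf2ra*. With a correction for GC content in each library, which was added after the values were seen, the same 8 genes passed in the same directions, with *Csf1r* at -0.47 (adjusted p = 0.0130 in edgeR). All 8 also passed without AclyM-KO replicate 2. *Kit*, *Csf2rb2* and *Csf3r* were the genes whose calls held with every one of the 6 libraries left out.

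The order of the levels can be read only per transcript length. In control macrophages the mean RPKM was 836 for *Csf1r*, 482 for *Igf1*, 124 for *Csf2rb2*, 117 for *Spi1*, 92.3 for *Csf2rb*, 50.4 for *Csf2ra*, 23.0 for *Csf3r*, 7.10 for *Myc*, 3.48 for *Igf1r* and 1.89 for *Kit*, and no neighbours in this order overlapped between libraries. The place of *Igf1* depends on the transcript, since its 5 transcripts had nearly equal counts but lengths from 651 to 7052 bases, which gave 113 to 1181 RPKM. The places of *Csf2rb* and *Csf2rb2* depend on reads that the filter on mapping quality may have removed. In AclyM-KO macrophages *Csf1r* (601 ± 141 RPKM) overlapped with *Igf1* (567 ± 29.6), *Spi1* (109 ± 17.5) with *Csf2rb2* (88.7 ± 7.25), and *Csf2rb* (68.3 ± 8.45) with *Csf2ra* (63.6 ± 5.82; SD, n = 3 each). *Kit* (3.92 ± 0.540 RPKM) stood above *Igf1r* (2.42 ± 0.641), the reverse of their order in control. The RPKM of *Csf1r* was 18.7, 15.6 and 15.8 times that of *Csf2ra* in control and 11.9, 7.54 and 8.94 times in AclyM-KO libraries.

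**Figure D3:**
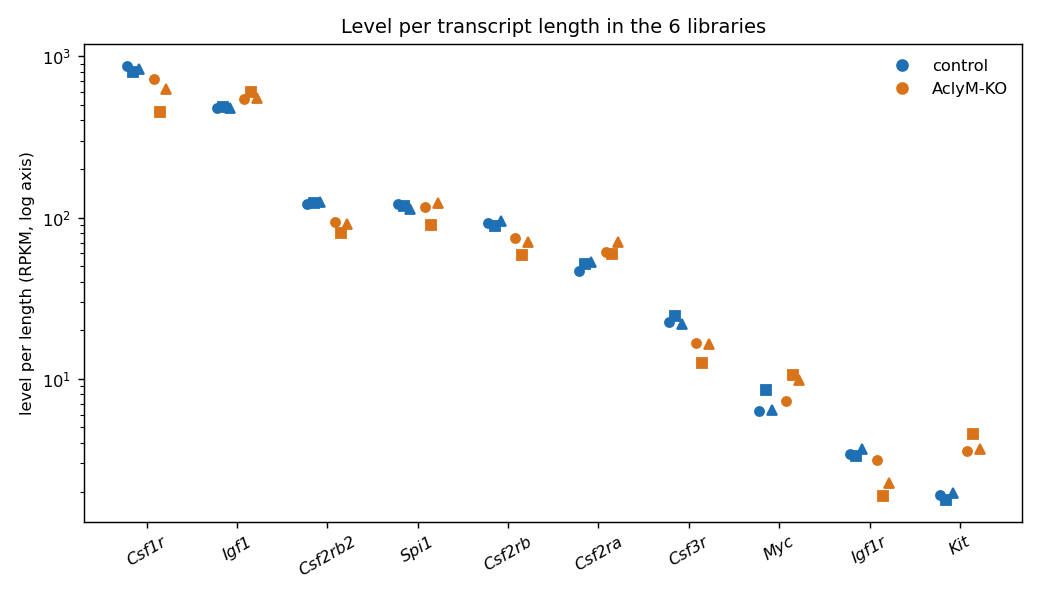
Level per transcript length in RPKM (vertical axis, log scale) of the 10 genes, ordered by their control mean, in control (blue) and AclyM-KO libraries (orange), with replicates as circle, square and triangle. *Csf1r* is at 836 RPKM in control, *Csf2rb* and *Csf2ra* meet in AclyM-KO macrophages, and *Kit* moves from 1.89 to 3.92 RPKM, above *Igf1r*.

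Ligands and further receptors of these families were examined as a list of 20 genes, of which 8 passed the filter on low counts. *Csf1*, which encodes the ligand of CSF1R, had 50.7, 53.2 and 48.4 CPM in control and 68.6, 76.2 and 72.0 CPM in AclyM-KO libraries, all above the control libraries, and rose with a log2 fold change of 0.51 (SE 0.077, adjusted p = 0.00186 in edgeR). Thus transcripts of the ligand and of its receptor changed in opposite directions, and the CSF1 added with the medium is not seen in RNA of the macrophages. *Insr*, the insulin receptor, fell by 0.41 (adjusted p = 0.0173) and *Ifngr1*, a chain of the interferon-γ receptor, by 0.52 (adjusted p = 4.41e-04 in edgeR). *Il34*, *Ins2* and *Pdgfra* were also among 9 genes with 0 counts in every library, and *Flt3* had at most 3. The list had 1 higher and 2 lower genes of 8 tested (37.5%, against 12.3% of all genes), and its median log2 fold change was -0.06. The lower genes were 1 rather than 2 without any 1 control library and without AclyM-KO replicate 3.

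Among 32 genes of CSF1R signalling and its brakes, all tested, 1 rose and 7 fell (25% past the threshold, against 12.3% of all genes), with a median log2 fold change of -0.07. Among the lower genes were the SRC family kinases *Lyn* and *Fgr* (*Fgr* at -0.87, adjusted p = 0.0216 in edgeR, with 43, 47 and 43 counts in the control and 25, 49 and 26 in the AclyM-KO libraries). The adaptor *Gab1* fell by 0.66 (adjusted p = 0.0309) and the ITAM adaptor *Tyrobp* by 0.29 (adjusted p = 0.0186 in edgeR). The CBL ubiquitin ligases, which mark activated receptor kinases for degradation, went in opposite directions, since *Cbl* fell by 0.40 (adjusted p = 0.0108) and *Cblb* rose by 0.41 (adjusted p = 0.00302 in edgeR). *Pik3r1* was also lower. The 7 lower calls rested on all control libraries, since 1, 0 and 0 genes were lower without control replicates 1, 2 and 3, and without AclyM-KO replicate 2, 5 genes were higher and 8 lower. In the list for JAK2 and STAT5 signalling, 15 of 17 genes were tested, 1 rose and 0 fell (6.67%, against 12.3% of all genes, median 0.04), and the higher gene was *Bcl2l1*, which encodes the survival protein BCL-XL (0.51, adjusted p = 0.00396 in edgeR). Without AclyM-KO replicate 2, 2 genes of it were higher and 2 lower.

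Of 19 IGF-binding proteins, insulin receptor substrates and related genes, 5 were tested. *Igfbp4*, a secreted protein that binds IGF1, fell from 417 ± 34.2 to 306 ± 53.8 CPM (SD, n = 3 each; log2 fold change -0.45, adjusted p = 0.0250 in edgeR), and *Igf2bp2*, an RNA-binding protein, rose by 0.57 (adjusted p = 0.0255). These were 40% of the genes tested, against 12.3% of all genes, and the median of the 5 was 0.21. The call of *Igf2bp2* was lost without any 1 control library and that of *Igfbp4* without control replicates 1 and 3. In the network of MYC partners and regulators, 14 of 17 genes were tested, 2 rose and 0 fell (14.3%, against 12.3% of all genes, median -0.13). Without control replicates 2 or 3, 1 rose, and without AclyM-KO replicate 1, 2 rose and 2 fell. The higher genes were *Aurka* (0.84, adjusted p = 0.00212 in edgeR) and *Cip2a* (0.65, adjusted p = 0.0103), of which the first is best known as a mitotic kinase. Of 25 tested growth and ribosome biogenesis genes that respond to MYC, 1 (*Nop56*, 0.48, adjusted p = 0.0365 in edgeR) rose and 0 fell (4%, against 12.3% of all genes), with a median of 0.10, and none rose without any 1 control library. By comparison, 14 of 16 proliferation markers rose and 0 fell (87.5%, against 12.3% of all genes, and 7, 8 and 10 rose without control replicates 1, 2 and 3), with a median of 0.59 and summed levels of 724 to 833 CPM in control and 1001 to 1392 CPM in AclyM-KO libraries, highest in AclyM-KO replicate 2. Without that library 13 rose, and of the MYC network 2 rose and 2 fell and of the MYC-responsive genes 2 rose.

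PU.1 partners and other myeloid transcription factors, examined as a list, moved both ways. Of 20 tested, 3 rose and 4 fell (35%, against 12.3% of all genes), with a median of -0.07. *Klf4*, a monocyte factor, rose by 1.21 (adjusted p = 0.00232 in edgeR) from 39, 78 and 41 counts in the control to 109, 285 and 117 in the AclyM-KO libraries. *Ets2* rose by 0.47 (adjusted p = 0.0136) and *Bhlhe41* also passed. *Spic*, a relative of PU.1, fell by 1.02 (adjusted p = 0.0196 in edgeR), *Irf8*, which binds DNA together with PU.1, by 0.55 (adjusted p = 0.00326) and *Cebpa* by 0.34 (adjusted p = 0.0488 in edgeR). Without control replicates 1, 2 and 3, 1, 1 and 2 of these factors were higher and 2 were lower each time, and without AclyM-KO replicate 2, 5 were higher and 7 lower. Of 19 tested surface and effector genes known to need PU.1, 1 rose (*Cd33*, 0.27, adjusted p = 0.0365 in edgeR) and 3 fell, namely *Cybb* (-0.36, adjusted p = 0.00423), *Mpeg1* (-0.28, adjusted p = 0.0143) and *Ctss* (-0.27, adjusted p = 0.0195), that is 21.1% against 12.3% of all genes, with a median of -0.03. Without any 1 control library 0 were higher and 1 was lower, and without AclyM-KO replicate 2, 2 were higher and 5 lower.

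**Figure D4:**
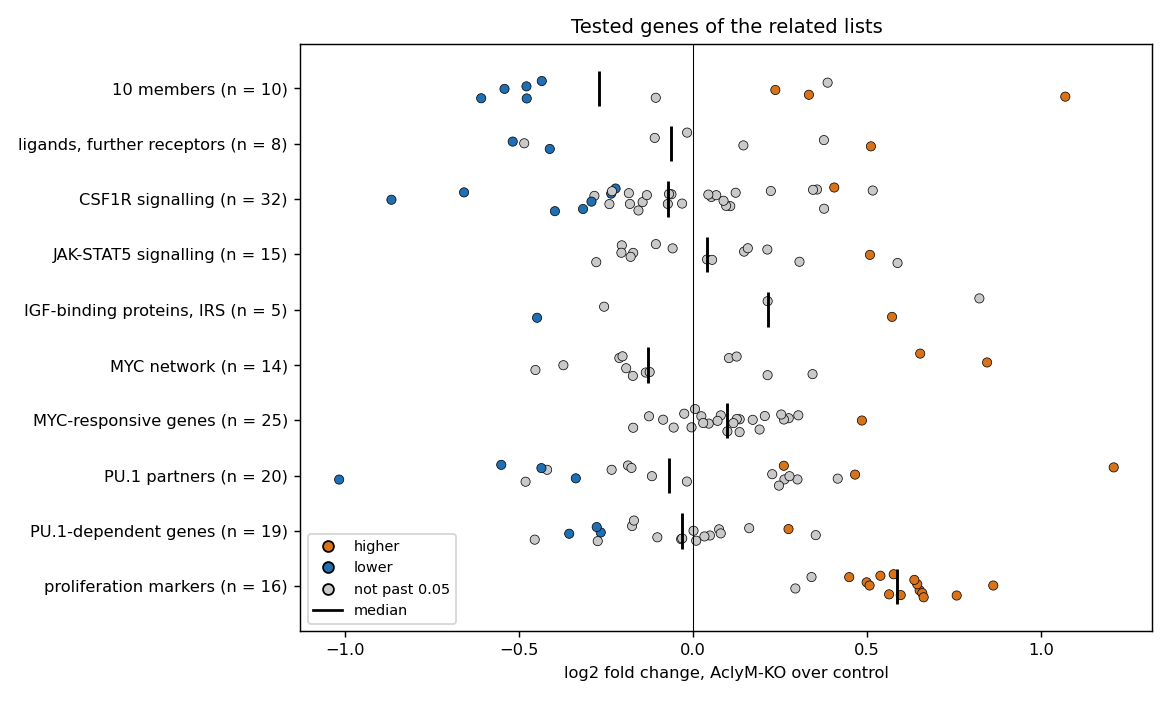
Log2 fold change of AclyM-KO over control macrophages (horizontal axis) for each tested gene of the 10 genes and the related lists, with genes past an adjusted p of 0.05 in orange (higher) or blue (lower), others in grey, and the median of each list as a bar. Of the 10 rows plotted, which leave out the lists of cell type markers, the 8 other than the 10 genes (-0.27) and the proliferation markers (0.59) have medians between -0.13 and 0.21.

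Osteoclasts are a further cell type that CSF1 supports. Of 8 osteoclast markers, 5 were tested, 2 rose (*Ctsk*, 1.47, adjusted p = 1.38e-04 in edgeR, and *Mmp9*, 1.17, adjusted p = 0.00439) and 1 fell (*Atp6v0d2*, -0.27, adjusted p = 0.0291), that is 60% against 12.3% of all genes, while the defining *Calcr* had 0 counts in every library. Without AclyM-KO replicate 2, 2 fell, and without any 1 control library 0 fell. The summed level was 582 to 604 CPM in control and 473 to 531 CPM in AclyM-KO libraries. *Atp6v0d2* alone made up 497 CPM of it in control and 413 CPM in AclyM-KO macrophages (means of 3). *Ctsk* and *Mmp9* had means of 5.27 and 6.44 CPM in control and 14.6 and 14.2 CPM in AclyM-KO macrophages. Of 10 fibroblast and stromal markers, 0 were tested, 4 were at 0 in all libraries, and the sum was at most 1.17 CPM. Of 10 lymphocyte markers 2 were tested, 0 rose and 1 (*Cd4*, -0.55, adjusted p = 0.0160 in edgeR) fell (50%, against 12.3% of all genes), with sums of 61.5 to 69.8 CPM in control and 36.8 to 54.8 CPM in AclyM-KO libraries, while *Cd3e* had 0 counts in every library. *Cd4* alone made up 60.8 CPM of these sums in control and 41.8 CPM in AclyM-KO macrophages (means of 3). The call of *Cd4* was lost without control replicates 1 or 3 and without AclyM-KO replicate 3.

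For each of the 8 genes past the threshold, the tested genes with the most similar profile of log2 CPM over the 6 libraries were listed as a description. They were *Plekhb2*, *Fkbp15* and *Ap1b1* for *Csf1r*, *Rnf128*, *B3gnt5* and *Rnf14* for *Kit*, *Kat7*, *Aplf* and *Hmox1* for *Csf2ra*, *Jade2*, *Slco2b1* and *Kdm6b* for *Csf2rb*, and *Acp2*, *Pianp* and *Rnf150* for *Csf2rb2*. For *Csf3r* they were *Sik3*, an unnamed RefSeq transcript and *Aplp2*, for *Igf1* *Prdx1*, *Ahi1* and *Mdh1*, and for *Igf1r* *Soga1*, *Bcor* and *Chst14*. The lowest Pearson r among these 24 was 0.9887 (*Hmox1*), over 6 libraries that share the group difference and AclyM-KO replicate 2. Between 0.419% (*Csf2ra*) and 3.7% (*Igf1*) of all tested genes reached an r above 0.95.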

How the data were processed

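RNA of unstimulated control and AclyM-KO BMDMs was sequenced by the authors from KAPA HyperPrep mRNA libraries. Per the submitters' processing notes, CASAVA 1.8.2 and STAR 2.5.2b were used with mm10. The authors kept well-mapped alignments with SAMtools, summed raw tags per RefSeq transcript with HOMER2, and deposited raw counts without normalisation or pooling. The libraries were strand-specific, and HOMER2 was run at its defaults. Of 12 value columns 6 belong to the libraries described, and 6 were not used. Transcripts of one gene with the same span but different exons had equal counts in 4 of 136 pairs (2.94%), so exons rather than whole gene bodies were counted.

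The 35745 transcripts were given symbols from RefSeq (35440) or GENCODE (188), 117 kept their accession, and the transcript with the highest total stood for each gene. Exon maps come from GENCODE transcripts matched to RefSeq on GRCm38. AclyM-KO and control libraries were set against each other with edgeR 4.0.16 under R 4.3.3 (TMM, filterByExpr, quasi-likelihood test, no covariates, Benjamini-Hochberg over 11470 genes, threshold 0.05). The biological coefficient of variation was 8.9%. RPKM used the normalised totals over 1 transcript per gene. The test was checked on simulated counts. All 10 genes are described in full, together with genes of each list past the threshold (at most 6 with values), marker sums, and the 3 most similar genes of each called gene with at least 10 CPM. Genes named from a list for having few or 0 counts or for not passing were chosen after their values were seen. The 10 genes and all lists were chosen with earlier results of these data known. Alternatives comprised the Wald test of DESeq2 1.42.0, scaling by RLE or by total counts, other filters, a replicate block, limma-voom (limma 3.58.1), each library left out, all or summed transcripts, thinning of AclyM-KO replicate 2 and a threshold of 0.01, and a GC correction added after seeing the data. Some list genes past the threshold are counted but not reported by name here.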

Additional observations from a re-analysis of the deposited data

How the results depend on the processing

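Of all genes, 1416 passed the threshold, 768 higher and 648 lower. The count was 2187 with limma-voom and sample weights, 557 at an adjusted p of 0.01, and 2446 of 18933 when every transcript was tested. With total counts in place of TMM it was 1427, with 919 higher and 508 lower, a shift towards higher calls, and the median log2 fold change of all genes moved from 0.00026 to 0.036. Leaving out 1 library gave 598 to 2136 genes, with the fewest calls without a control library and 2136 without AclyM-KO replicate 2. Of the 10 genes, 8 passed, 4 at an adjusted p of 0.01, and 3 to 9 with 1 library left out (4, 4 and 3 without control replicates 1, 2 and 3, and 9, 8 and 4 without AclyM-KO replicates 1, 2 and 3). The log2 fold change of *Spi1* lay between -0.20 and 0.024 with 1 library left out, and was positive without AclyM-KO replicate 2. The cause was not tested. With the transcripts of a gene summed, *Csf1r* (adjusted p = 0.0516) and *Igf1r* (0.0558) missed the threshold. With the total over all transcripts as the denominator, in which shared exons count several times, every RPKM was lower (for *Csf1r* 476 in place of 836 in control). The cause of the other changes in number was not tested.

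The replicate numbers 1 to 3 that the groups share did not pair the libraries. The deviations of same-numbered libraries from their group means had correlations of 0.090, 0.11 and -0.047 across genes. With the replicate block 1583 genes passed, and the same 8 of the 10 genes in the same directions. Over 1 transcript per gene, the control libraries held 11120034 to 13598887 counts, which left *Kit* and *Myc* with 110 to 266 counts in each control library.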
